A study of Mus musculus with 6 samples.

Results

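Mitotic cell cycle genes were followed in whole lumbar dorsal root ganglia, which house the cell bodies of the body's sensory neurons, of mice with a burn injury and of control mice. The genes were a list of 38 symbols drawn up by name, 22 that act in mitosis and 16 that act at the start of DNA replication (S phase), among 38926 gene symbols counted. All 38 were found in every library, and all 38 were among the 17534 genes that passed the filter on low counts. Every library came from wild type male C57BL/6 mice aged 6 to 8 weeks, from ganglia of levels L3, L4 and L5. The burn group held 3 libraries taken 3 days after the injury, and the control group held 3 libraries. One burn library, titled BURN_IP and without a number, is called burn 3. IP may stand for ipsilateral, which the title does not spell out, and the injured side of the other burn libraries is not given. The labels call the tissue neurons, but the ganglia were extracted whole, so glia, vessels, blood and adhering tissue contribute RNA. The labels do not state that the libraries came from separate animals, and the p-values cover the spread among these libraries alone, which may be technical.

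A cell that divides first licenses its replication origins and copies its DNA, and then condenses, aligns and separates its chromosomes. The S phase genes load the replicative helicase and make nucleotides, and the mitosis genes build the spindle and the kinetochores and time the exit from division. Adult sensory neurons do not divide. Transcripts of these genes in a ganglion are therefore usually read as coming from dividing glial, vascular, connective tissue or blood-lineage cells, and in a bulk sample fewer dividing cells and less RNA per cell cannot be told apart.

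Library totals in genes lay between 22023565 and 70002671 reads after the burn and between 17273908 and 81968142 reads in controls. Burn 3 and control 3 were the 2 deepest libraries and stood apart from the other 4. Markers of sensory neurons, 8 genes in all, summed to 6484 to 7988 CPM after the burn and 7135 to 8430 CPM in controls, so the labelled tissue was present in every library. CPM is used for reads scaled to a common library size, with TMM scaling factors. Values in the text are given for libraries 1, 2 and 3 of each group, in that order.

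Sequences upstream of 6 members are printed because 2 short motifs are known from promoters of mitosis genes and 1 from those of S phase genes. Whether these motifs bear on the levels in these libraries was not tested. The windows hold the 250 bases before the RefSeq start on GRCm38.p6, read on the strand of the gene. They are Mki67, chr7:135716380-135716629 on the minus strand; Top2a, chr11:99024190-99024439 on the minus strand; Cdc20, chr4:118437344-118437593 on the minus strand; Plk1, chr7:122159185-122159434 on the plus strand; Mcm6, chr1:128359706-128359955 on the minus strand; and Mcm5, chr8:75109259-75109508 on the plus strand. Capitals mark 3 motifs searched on both strands: the CCAAT box (CCAAT), the cell cycle genes homology region or CHR (TTTGAA or TTCGAA), and the E2F motif (TTTCCCGC, TTTGGCGC, TTTGCCGC or TTTCGCGC).
Mki67: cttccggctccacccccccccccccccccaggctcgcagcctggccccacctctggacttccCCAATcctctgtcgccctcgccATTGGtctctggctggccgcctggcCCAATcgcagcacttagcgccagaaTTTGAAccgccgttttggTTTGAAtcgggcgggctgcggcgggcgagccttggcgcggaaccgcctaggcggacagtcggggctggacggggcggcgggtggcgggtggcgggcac
Top2a: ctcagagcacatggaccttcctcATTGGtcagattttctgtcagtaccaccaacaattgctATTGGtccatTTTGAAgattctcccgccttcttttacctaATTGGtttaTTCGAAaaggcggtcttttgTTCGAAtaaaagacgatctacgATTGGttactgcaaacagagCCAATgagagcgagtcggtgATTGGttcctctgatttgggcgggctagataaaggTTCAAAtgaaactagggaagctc
Cdc20: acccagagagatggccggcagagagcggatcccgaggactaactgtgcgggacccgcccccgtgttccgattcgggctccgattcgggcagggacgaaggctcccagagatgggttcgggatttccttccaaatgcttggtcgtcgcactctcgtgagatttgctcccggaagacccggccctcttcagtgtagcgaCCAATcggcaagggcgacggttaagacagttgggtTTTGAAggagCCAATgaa
Plk1: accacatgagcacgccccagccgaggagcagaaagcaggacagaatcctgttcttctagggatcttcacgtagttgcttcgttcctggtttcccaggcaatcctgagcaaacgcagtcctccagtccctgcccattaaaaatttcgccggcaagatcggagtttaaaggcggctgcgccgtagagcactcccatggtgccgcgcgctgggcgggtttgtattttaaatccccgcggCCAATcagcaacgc
Mcm6: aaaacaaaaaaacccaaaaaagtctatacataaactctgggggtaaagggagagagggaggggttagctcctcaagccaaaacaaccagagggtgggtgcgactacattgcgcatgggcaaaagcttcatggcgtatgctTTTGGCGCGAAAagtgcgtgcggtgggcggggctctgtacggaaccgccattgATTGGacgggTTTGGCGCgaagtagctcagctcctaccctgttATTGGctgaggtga
Mcm5: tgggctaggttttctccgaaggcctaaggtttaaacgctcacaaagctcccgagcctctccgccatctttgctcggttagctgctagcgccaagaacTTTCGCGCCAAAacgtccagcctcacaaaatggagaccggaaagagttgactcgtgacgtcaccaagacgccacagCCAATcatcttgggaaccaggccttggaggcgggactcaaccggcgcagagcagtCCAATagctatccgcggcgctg

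Among the printed windows, Top2a held 6 CCAAT boxes and 4 CHR motifs, Mki67 held 3 and 2, Cdc20 held 2 and 1, and Plk1 held 1 CCAAT box and no CHR. Mcm6 held 2 CCAAT boxes and 3 E2F motifs, of which 2 overlap, and Mcm5 held 2 CCAAT boxes and 2 overlapping E2F motifs. RefSeq windows were matched for 32 of the 38 members, 18 of mitosis and 14 of S phase. Only 1 window was taken per member, while the 32851 windows of all genes came from 27025 genes, tested here or not. A CCAAT box was in 15 of 18 mitosis windows (83.3%) and 9 of 14 S phase windows (64.3%), against 33.8% of 32851 windows of all genes. CHR motifs were in 8 of 18 mitosis windows (44.4%) and 3 of 14 S phase windows (21.4%), against 17.1% of all windows. E2F motifs were in 2 of 18 mitosis windows (11.1%) and 4 of 14 S phase windows (28.6%), against 1.86% of all windows. Of those 4 S phase windows, the ones of Mcm7 and Cdc6 lie wholly inside the annotated gene and are counted here, as are such windows among all genes. A match is a run of letters and not a shown binding site, and other spellings of each motif were not searched. Top2a and Mcm5 were added after their motifs were seen, and windows that lay over 30 bases inside the annotated gene were not printed. The planned windows of Ccnb1, Pcna, Cdc6 and E2f1 were left out for that reason. Ccnb1 held 2 CCAAT boxes, Pcna 1 CCAAT box, Cdc6 1 E2F motif and E2f1 none of the motifs. The printed windows were thus partly picked by their motifs and do not stand for the lists.

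The comparison of burn with control ganglia asked, for these genes, whether transcripts of dividing cells differed 3 days after the injury. All 22 mitosis genes and all 16 S phase genes had a lower estimate after the burn, where 47.9% of all tested genes had one. None of the 38 passed at an adjusted p under 0.05 in edgeR's quasi-likelihood test over all genes, where 0% of tested genes were called lower and 0.0228% higher. Every member had an adjusted p of 0.9998. The median log2 fold change, burn over control, was -0.61 for the mitosis genes, in a range of -0.78 to -0.41. For the S phase genes it was -0.47, in a range of -0.92 to -0.16, and over all tested genes it was 0.01. At an unadjusted p under 0.05 there were 4 mitosis genes (Tpx2, Ccna2, Cenpf and Aurka) and 2 S phase genes (Cdt1 and Cdc6), all lower, against 0.924% of tested genes lower. DESeq2 called none of the 38 (0.104% of all genes, all higher), with 11 mitosis and 5 S phase genes at an unadjusted p under 0.05 against 0.838% lower of all genes. Limma-voom called none of the 38 (0.0171% of all genes, all higher), with 3 mitosis and 0 S phase genes at an unadjusted p under 0.05 against 0.736% lower of all genes. These counts turned on single libraries: given with mitosis first, they were 1 and 1 without burn 2 (1.05% of all genes lower in that fit) and 0 and 0 without burn 3 (0.531%), control 1 (0.527%) or control 2 (0.38%). They were 13 and 3 without burn 1, against 1.14% of all genes, and 19 and 11 without control 3, against 3.01%.

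The order of the libraries was shared by most members. Control 1 and control 2 were the 2 highest libraries for 21 of 22 mitosis genes and 14 of 16 S phase genes, and for 8.7% of all tested genes. Burn 3 was the lowest library for all 22 mitosis genes and 12 of 16 S phase genes, and for 21.5% of all tested genes. Control 3 lay below burn 1 in all 22 mitosis genes and 12 of 16 S phase genes, and below burn 2 in 16 and 12 of them, against 51.6% and 50.9% of all tested genes. The groups therefore overlapped in every mitosis gene. Pcna, alone among the 38, had all burn values below all control values, where 2.91% of tested genes had this.

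**Figure D1:**
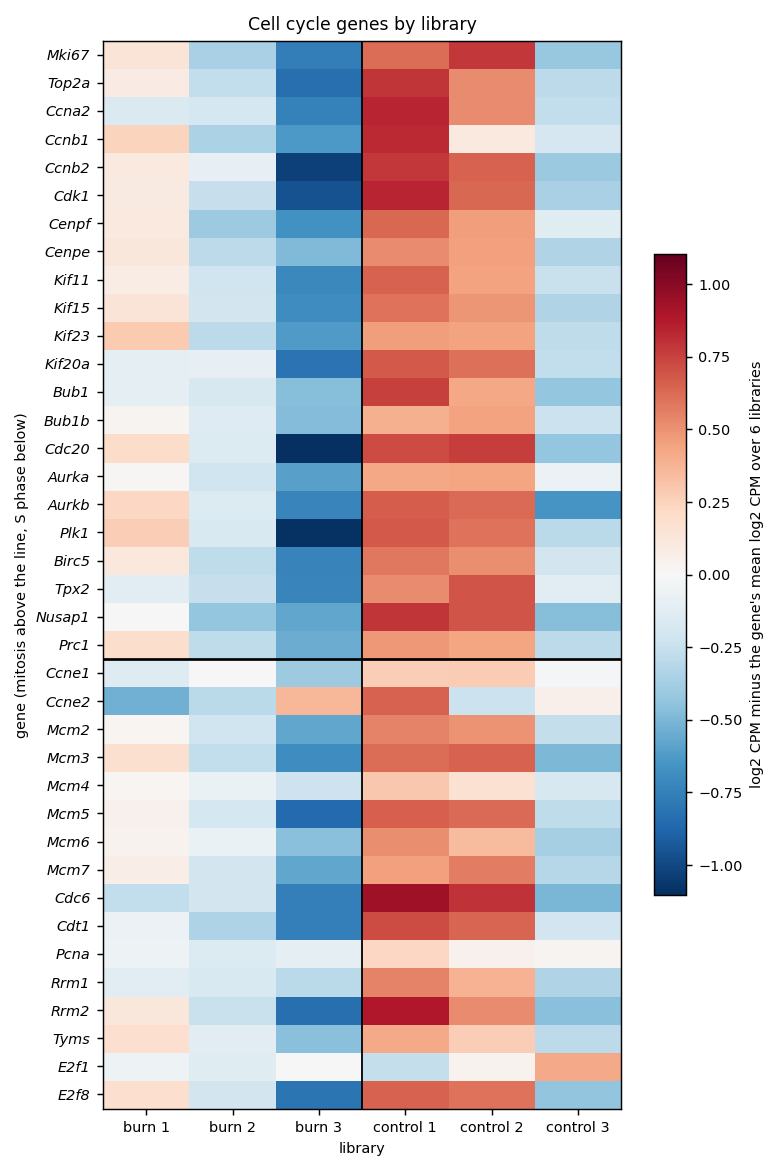
Each cell shows the log2 CPM of 1 gene in 1 library minus that gene's mean over the 6 libraries, with burn libraries left of the vertical line and control libraries right of it. Control 1 and control 2 are red in nearly every row, burn 3 is the bluest column for all 22 mitosis genes, and E2f1 and Ccne2 break the pattern.

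Among the genes that act on chromosomes as a whole, control 3 lay within the burn values. Mki67, whose protein Ki-67 coats mitotic chromosomes and marks cycling cells, had 149.8, 106 and 80.3 CPM after the burn, against 208, 234 and 102 CPM in controls. Control 3 thus lay below burn 1 and burn 2, while burn 3 was the lowest of all (log2 fold change -0.69, SE 0.34, edgeR unadjusted p 0.0801). Top2a, the topoisomerase that untangles replicated DNA, had 54.2, 42.2 and 28.6 CPM after the burn, against 87.9, 73.1 and 41.6 CPM in controls. Its means were 41.7 ± 12.8 CPM after the burn and 67.5 ± 23.7 CPM in controls (mean ± SD, n = 3 each), and its groups overlapped through control 3 (log2 fold change -0.70, SE 0.32, edgeR unadjusted p 0.062).

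Cyclins and their kinase drive entry into mitosis. Ccna2, the cyclin of S phase and of the approach to mitosis, had 15.7, 15.3 and 10.5 CPM after the burn, against 31.5, 25.2 and 14.5 CPM in controls (log2 fold change -0.78, SE 0.29, edgeR unadjusted p 0.0312). Here control 3 lay below both shallower burn libraries and above burn 3. Cdk1, the kinase that mitotic cyclins activate, had 8.83, 6.89 and 4.23 CPM after the burn, against 14.7, 12.7 and 6.41 CPM in controls (log2 fold change -0.77, SE 0.37, edgeR unadjusted p 0.0731). Ccnb1, a cyclin B that activates Cdk1, was sparse, with 69, 61 and 109 reads after the burn, against 167, 50 and 180 reads in controls, or 3.05, 2.02 and 1.66 CPM after the burn, against 4.56, 2.78 and 2.26 CPM in controls. It was the only mitosis gene in which burn 1 and burn 2 did not both lie below control 1 and control 2 (log2 fold change -0.53, SE 0.34, edgeR unadjusted p 0.162). Ccnb2, the second cyclin B, spread by 3.5 times between its highest and lowest library and had 7.24, 6.29 and 3.29 CPM after the burn, against 11.5, 10.5 and 5.05 CPM in controls, a log2 fold change of -0.69.

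Kinetochore genes, spindle motors and spindle assembly factors were all lowest in burn 3. Cenpf, a large kinetochore protein, had 20.7, 14.5 and 12.1 CPM after the burn, against 29.8, 26.4 and 17.4 CPM in controls (log2 fold change -0.64, SE 0.26, edgeR unadjusted p 0.0401). Cenpe, the kinetochore motor that brings chromosomes to the spindle equator, had 14.8, 11.1 and 9.67 CPM after the burn, against 19.5, 18.6 and 10.8 CPM in controls, a log2 fold change of -0.46. In both genes burn 3 was lowest and control 1 highest. Kif11, the motor that pushes spindle poles apart, had 23.7, 19.3 and 13.7 CPM after the burn, against 35.2, 30.5 and 18.9 CPM in controls (log2 fold change -0.58, SE 0.27, edgeR unadjusted p 0.0699). The other motors Kif15, Kif23 and Kif20a had log2 fold changes of -0.52, -0.41 and -0.69. Tpx2, which nucleates spindle microtubules and activates Aurora A, had 11.4, 10.3 and 7.45 CPM after the burn, against 17.7, 19.9 and 11.3 CPM in controls. Its groups met but did not separate, since control 3 and burn 1 were nearly equal (log2 fold change -0.75, SE 0.25, edgeR unadjusted p 0.0179), and no mitosis gene had a lower p. The microtubule bundlers Nusap1 and Prc1 had log2 fold changes of -0.75 and -0.43.

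Checkpoint genes and mitotic kinases completed the mitosis genes. Bub1, a spindle checkpoint kinase, had 4.64, 4.44 and 3.605 CPM after the burn, against 8.44, 6.73 and 3.72 CPM in controls, so that burn 3 and control 3 were nearly level (log2 fold change -0.57, SE 0.30, edgeR unadjusted p 0.0981). Bub1b, whose protein BubR1 holds back anaphase, had the narrowest spread of the mitosis genes, 1.903 times between highest and lowest library, and had 13.5, 11.9 and 9.45 CPM after the burn, against 17.3, 17.97 and 11.2 CPM in controls. Cdc20, the activator of the anaphase-promoting complex, had the widest, 3.64 times, and had 6.49, 5.1 and 2.63 CPM after the burn, against 9.29, 9.57 and 4.21 CPM in controls (log2 fold change -0.70, SE 0.41, edgeR unadjusted p 0.131). Burn 3 stood below every other library in Cdc20, as it did in Plk1. Plk1, a kinase of centrosomes and cytokinesis, had 81, 80 and 92 reads after the burn, against 174, 81 and 193 reads in controls, or 3.58, 2.65 and 1.399 CPM after the burn, against 4.75, 4.51 and 2.43 CPM in controls. Aurkb, the kinase of the chromosomal passenger complex, had 5.52, 4.24 and 2.84 CPM after the burn, against 7.48, 7.23 and 3.003 CPM in controls (log2 fold change -0.49, SE 0.39, edgeR unadjusted p 0.25). Birc5, whose protein survivin is a subunit of that complex, had 8.52, 6.49 and 4.71 CPM after the burn, against 11.8, 11.2 and 6.85 CPM in controls (log2 fold change -0.60, SE 0.28, edgeR unadjusted p 0.0693). In Aurkb, burn 3 and control 3 were nearly level, and in Birc5 they were not. Aurka, the Aurora kinase of the spindle poles, had 7.38, 6.29 and 4.84 CPM after the burn, against 9.804, 9.905 and 7 CPM in controls (log2 fold change -0.53, SE 0.22, edgeR unadjusted p 0.0425). In each of these 7 genes control 3 lay below burn 1 and burn 3 lay lowest.

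Replication licensing genes held the largest estimates of the S phase list. Cdc6, which recruits the helicase to replication origins, had 4.99, 5.23 and 3.57 CPM after the burn, against 11.5, 10.5 and 4.23 CPM in controls. Its means were 4.599 ± 0.896 CPM after the burn and 8.73 ± 3.93 CPM in controls (mean ± SD, n = 3 each), and control 3 lay below burn 1 and burn 2 (log2 fold change -0.92, SE 0.37, edgeR unadjusted p 0.041). Cdt1, its partner in loading the helicase, had 4.59, 3.81 and 2.86 CPM after the burn, against 7.92, 7.51 and 4.16 CPM in controls (log2 fold change -0.80, SE 0.30, edgeR unadjusted p 0.0287), with control 3 below burn 1 alone. The 6 subunits of the helicase itself ranged from a log2 fold change of -0.68 in Mcm5 to -0.20 in Mcm4. Mcm2 had 19.2, 16.2 and 12.7 CPM after the burn, against 27.7, 26.7 and 15.8 CPM in controls (log2 fold change -0.54, SE 0.25, edgeR unadjusted p 0.062). Mcm6 had 28.8, 26.7 and 20.4 CPM after the burn, against 40.03, 35.8 and 21.8 CPM in controls (log2 fold change -0.36, SE 0.24, edgeR unadjusted p 0.17). Both overlapped between groups through control 3. Mcm4 had 27.5, 25.8 and 23.1 CPM after the burn, against 33.2, 30.4 and 23.9 CPM in controls, a spread of only 1.44 times between libraries. Mcm3 and Mcm7 had log2 fold changes of -0.56 and -0.49.

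Nucleotide synthesis, the replication clamp and the regulators of entry into S phase were more mixed. Rrm2, the regulated subunit of ribonucleotide reductase, had 18.5, 14.3 and 9.52 CPM after the burn, against 31.2, 24.3 and 12.3 CPM in controls (log2 fold change -0.68, SE 0.37, edgeR unadjusted p 0.104), with the library order of the mitosis genes. Rrm1, its partner subunit, was lowest in control 3 and had 35.3, 34.2 and 31.4 CPM after the burn, against 56.2, 50.2 and 30.7 CPM in controls, a log2 fold change of -0.44. Tyms, thymidylate synthase, had 6.54, 5.27 and 4.18 CPM after the burn, against 7.701, 6.96 and 4.7 CPM in controls (log2 fold change -0.28, SE 0.25, edgeR unadjusted p 0.302). Pcna, the sliding clamp of DNA polymerase, which also serves DNA repair, had 21.3, 20.04 and 20.7 CPM after the burn, against 26.1, 22.98 and 22.7 CPM in controls. Its burn values all lay below its control values, by a small margin and with the narrowest spread of the 38 genes, 1.303 times (log2 fold change -0.21, SE 0.11, edgeR unadjusted p 0.0963).

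Ccne1 and Ccne2, the cyclins E that start S phase, differed from each other in pattern. Ccne1 had 10.95, 12.2 and 9.16 CPM after the burn, against 14.6, 14.7 and 12.01 CPM in controls (log2 fold change -0.36, SE 0.16, edgeR unadjusted p 0.0564), and burn 2 lay just above control 3. Ccne2 had 6.095, 7.15 and 11.3 CPM after the burn, against 13.8, 7.46 and 9.15 CPM in controls, so that burn 3 lay above control 2 and control 3 (log2 fold change -0.30, SE 0.30, edgeR unadjusted p 0.345). E2f1, a transcription factor of S phase genes, had 12.6, 11.96 and 13.04 CPM after the burn, against 10.95, 13.5 and 17.5 CPM in controls, was highest in control 3 and lowest in control 1, and had a log2 fold change of -0.16 (SE 0.18). Its estimate was 0.0274 among the 4 shallower libraries and 0.0509 without control 3. E2f8, a repressor among the E2F factors, kept the order of the mitosis genes, with 6.802, 5.199 and 3.42 CPM after the burn, against 9.34, 9.01 and 4.42 CPM in controls (log2 fold change -0.56, SE 0.35, edgeR unadjusted p 0.152).

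**Figure D2:**
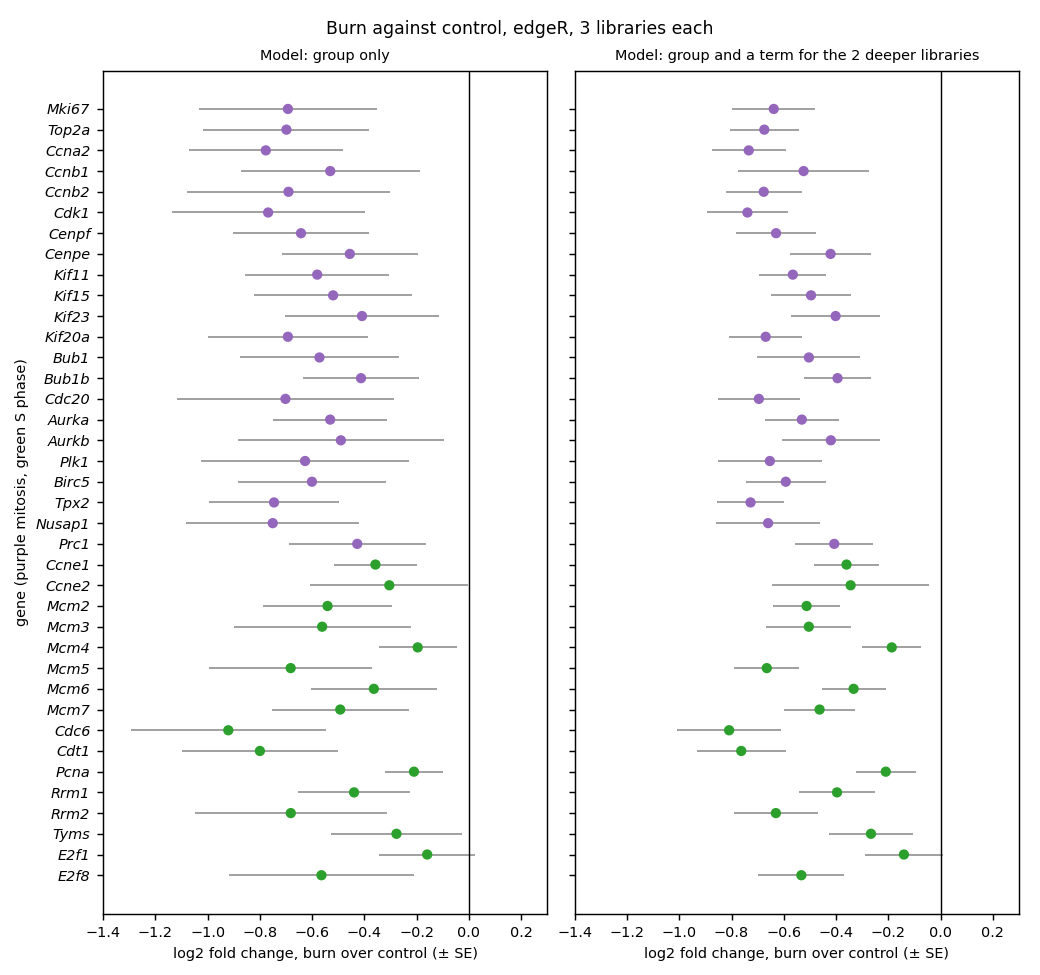
Points are log2 fold changes of burn over control with their standard errors, for 22 mitosis genes (purple) and 16 S phase genes (green), from the model with group alone (left) and with an added term for the 2 deeper libraries (right). All 38 points lie below 0 in both panels, where 47.9% and 47.7% of all tested genes do, and the standard errors are smaller on the right for most genes.

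Values were also lower after the burn within each depth class for most members. Among the 4 shallower libraries, burn 1 and burn 2 both lay below control 1 and control 2 in 21 of 22 mitosis genes and 15 of 16 S phase genes, where 14.1% of tested genes did so. Between the 2 deeper libraries, burn 3 lay below control 3 in 22 of 22 and 14 of 16, where 45.1% of tested genes did. Both held in 21 mitosis genes and 13 S phase genes, where 8.14% of tested genes had both. Ccne2 and Rrm1 were the members higher in burn 3 than in control 3. The median log2 difference of the mitosis genes was -0.47 between the deeper libraries and -0.66 among the shallower ones, and that of the S phase genes was -0.25 and -0.61. The deeper class holds 1 library of each group, so its difference has no replicate check. For single genes, Cdc6 differed by -0.24 between burn 3 and control 3 and -1.09 among the other 4 libraries, Mki67 by -0.34 between burn 3 and control 3 and -0.81 among the other 4 libraries, and Plk1 by -0.75 between burn 3 and control 3 and -0.57 among the other 4 libraries.

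With a term for the 2 deeper libraries in the model, 20 of 22 mitosis genes and 11 of 16 S phase genes had an unadjusted p under 0.05 in edgeR, all lower, against 2.46% of tested genes lower. Among the 4 shallower libraries alone the counts were 20 and 10, against 2.48% of genes, and none of the 38 passed after adjustment, where 0.0231% of genes were called lower. With the depth term, too, none of the 38 passed after adjustment, where 0.12% of tested genes were called lower and 0.097% higher. The smallest adjusted p-values were those of Tpx2, whose log2 fold change was then -0.73 (SE 0.13, edgeR adjusted p 0.0822), and Mcm5, at -0.67 (SE 0.12, edgeR adjusted p 0.09997). Mki67 stood at -0.64 (SE 0.16, edgeR adjusted p 0.306). The 38 genes ran together over the libraries, so a count of them does not weigh like that many separate genes.

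**Figure D3:**
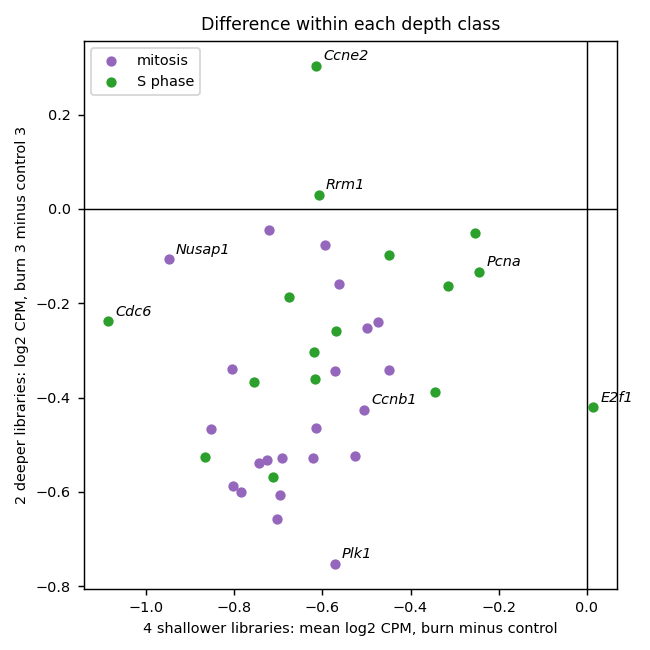
Each point is 1 gene, with its mean log2 difference of burn minus control among the 4 shallower libraries on the x axis and the log2 difference of burn 3 minus control 3 on the y axis. All mitosis genes lie in the lower left part, while Ccne2 and Rrm1 lie above 0 on the y axis and E2f1 lies just right of 0 on the x axis.

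How far the members ran together was measured by Pearson's r of log2(CPM + 0.1) over the 6 libraries, as a description. Between pairs of mitosis genes the median r was 0.96, with a lowest value of 0.78 over 231 pairs. Between pairs of S phase genes it was 0.93 with a lowest value of -0.59 over 120 pairs, and between a mitosis and an S phase gene it was 0.95 over 352 pairs. E2f1 (r = -0.40), Ccne2 (0.03) and Pcna (0.75) were the members least like the mean of the mitosis genes, and every other member had r of at least 0.888, the value of Ccne1. Each mitosis gene is itself part of that mean, which favours it over the S phase genes. No median r over all genes is given beside these values. These points share depth and library preparation, and with 6 libraries in 2 groups such values carry little weight.

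Level per length placed Mki67 first. RPKM, the CPM per kilobase of annotated exon, was 11.2 ± 3.49 RPKM after the burn and 18.02 ± 6.98 RPKM in controls for Mki67 (mean ± SD, n = 3 each). Among S phase genes Pcna was highest, with 8.62 ± 0.271 RPKM after the burn and 9.98 ± 0.782 RPKM in controls, followed in controls by Rrm2, Mcm4 and Mcm6. The lowest level was that of Ccnb1, with 0.532 ± 0.171 RPKM after the burn and 0.759 ± 0.286 RPKM in controls. The median member stood at 1.77 RPKM after the burn and 2.61 RPKM in controls for mitosis and at 3.10 RPKM after the burn and 4.42 RPKM in controls for S phase. For scale, Tubb3, a neuronal tubulin, stood at 1178 RPKM after the burn and 1272 RPKM in controls. In the order of control means, Mki67 stood above Pcna by more than the SD of either, and neighbours further down differed by less than the larger of their SDs.

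**Figure D4:**
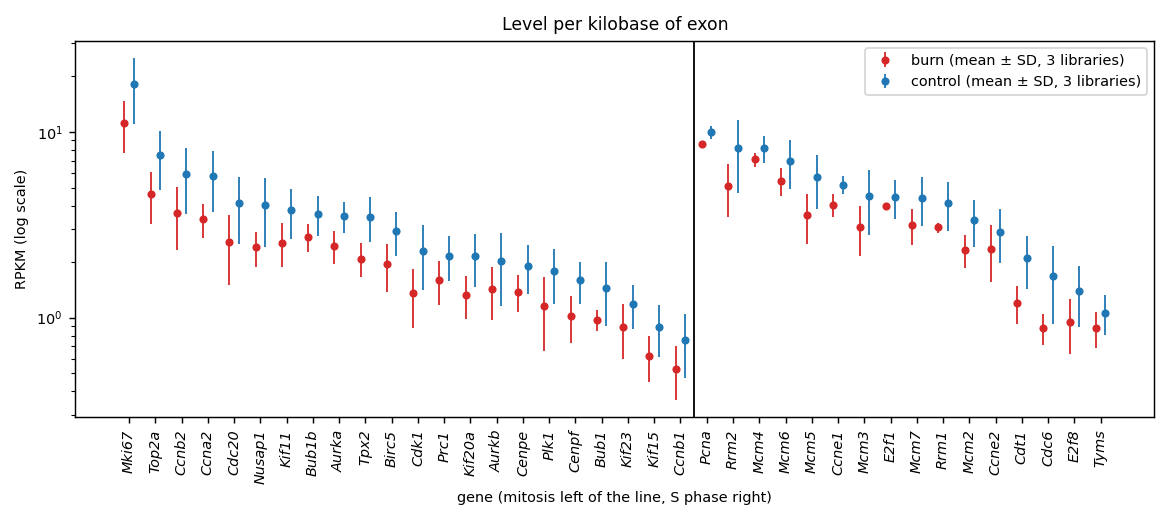
Points are the mean RPKM of each gene on a log axis with the SD over 3 libraries, burn left of control, ordered by the control level within mitosis (left of the line) and S phase (right). Burn means lie below control means for all 38 genes, and the SD bars overlap for most of them.

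Other genes of the cell cycle, from lists chosen by function, were read beside the members. Of 37 further mitosis genes, all had a lower estimate, where 47.9% of tested genes had one, with a median log2 fold change of -0.55. None was called, where 0% of tested genes were called lower. At an unadjusted p under 0.05 in edgeR 6 were lower, where 0.924% of tested genes were. Ect2, which positions the cleavage furrow, had 6.67, 5 and 5.26 CPM after the burn, against 9.59, 8.35 and 6.84 CPM in controls (log2 fold change -0.55, SE 0.19, edgeR unadjusted p 0.023). Hmmr, a spindle protein, had 7.02, 5.298 and 4.65 CPM after the burn, against 11.8, 10.6 and 6.37 CPM in controls (log2 fold change -0.76, SE 0.27, edgeR unadjusted p 0.0232). Smc2, a condensin subunit, had 23.8, 20.4 and 21.2 CPM after the burn, against 34.2, 29.99 and 23.5 CPM in controls (log2 fold change -0.42, SE 0.16, edgeR unadjusted p 0.0285). The burn values of Ect2 lay below all its control values, while Hmmr and Smc2 overlapped through control 3. Of 23 further S phase genes, 22 had a lower estimate, with a median of -0.29, and 0 were called. At an unadjusted p under 0.05 in edgeR 1 of them, Chaf1a, was lower, against the same 0.924% of tested genes. Chaf1a, a subunit of the complex that places histones on new DNA, had 7.51, 7.88 and 6.27 CPM after the burn, against 10.6, 10.4 and 8.54 CPM in controls, without overlap (log2 fold change -0.45, SE 0.16, edgeR unadjusted p 0.0265). Uhrf1, which carries DNA methylation over to new strands, had 11.1, 8.28 and 5.17 CPM after the burn, against 16.3, 15.9 and 8.998 CPM in controls (log2 fold change -0.75, SE 0.33, edgeR unadjusted p 0.0531). Orc1, a subunit of the origin recognition complex, had 1.85, 2.15 and 1.26 CPM after the burn, against 4.56, 3.78 and 1.45 CPM in controls (log2 fold change -0.89, SE 0.44, edgeR unadjusted p 0.0812). In both of these control 3 lay below burn 1.

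Regulators of the earlier growth phase G1 split evenly. Of 22 such genes 11 had a lower and 11 a higher estimate, none was called or had an unadjusted p under 0.05 in edgeR, and the median log2 fold change was -0.05. Summed over the list they stood at 666, 570.4 and 649 CPM after the burn, against 683, 684 and 598 CPM in controls. Ccnd1, the cyclin D that responds to growth factors, had 65.4, 47.02 and 64.3 CPM after the burn, against 46.4, 52.9 and 57.1 CPM in controls (log2 fold change 0.18, SE 0.15, edgeR unadjusted p 0.288). Cdkn1a, which encodes the cell cycle inhibitor p21, had 40.3, 26.8 and 34.6 CPM after the burn, against 24.9, 32 and 26.2 CPM in controls (log2 fold change 0.29, SE 0.17, edgeR unadjusted p 0.132). E2f2, an activating E2F factor, the gene of this list with the lowest p, had 26.4, 21.7 and 18.2 CPM after the burn, against 37.2, 46.1 and 20.4 CPM in controls (log2 fold change -0.64, SE 0.29, edgeR unadjusted p 0.0606), with control 1 and control 2 highest. Cdkn2c, another inhibitor of the G1 kinases, had 8.26, 5.66 and 5.73 CPM after the burn, against 8.22, 12.3 and 6.74 CPM in controls (log2 fold change -0.47, SE 0.26, edgeR unadjusted p 0.118). The groups overlapped in each of these 4 genes.

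Markers of other cell types were set beside the members by library. The 22 mitosis genes summed to 413, 317 and 233 CPM after the burn, against 605, 593 and 308 CPM in controls, and the 16 S phase genes to 253, 228 and 194 CPM after the burn, against 360, 331 and 220.1 CPM in controls. Markers of erythroid precursors, the dividing red cell lineage of marrow and spleen, ran close to them. Of 12 listed genes 11 were among the symbols counted, all 11 with a lower estimate, where 47.9% of tested genes had one. At an unadjusted p under 0.05 in edgeR 8 of the 11 were lower, where 0.924% of tested genes were. The erythroid sum was 379, 259 and 251 CPM after the burn, against 592, 636 and 250.2 CPM in controls. The mitosis sum divided by the erythroid sum lay between 0.929 and 1.22 after the burn and between 0.933 and 1.23 in controls, while the mitosis sum itself spread by 2.59 times. Slc4a1, the anion exchanger of red cells, had 128, 91.3 and 76.03 CPM after the burn, against 208, 249.9 and 93.2 CPM in controls (log2 fold change -0.90, SE 0.36, edgeR unadjusted p 0.0413). Alas2, the first enzyme of haem synthesis in red cells, had 125, 74.1 and 92.98 CPM after the burn, against 144, 155 and 57.9 CPM in controls (log2 fold change -0.29, SE 0.37, edgeR unadjusted p 0.468). Klf1, a defining transcription factor of the lineage, had 4.55, 4.17 and 2.74 CPM after the burn, against 13.7, 12.9 and 4.298 CPM in controls (log2 fold change -1.43, SE 0.44, edgeR unadjusted p 0.013). With the depth term 1 of the 11, Hemgn, passed as lower (edgeR adjusted p 0.0392), where 0.12% of tested genes were called lower. No marker was at 0 in any library, and the part of these cells in the result was not tested.

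Other blood-lineage markers gave the following sums. In edgeR 47.9% of all tested genes had a lower estimate, and 0.924% were lower at an unadjusted p under 0.05. Of 5 granulocyte precursor genes all had a lower estimate. Their sum was 93.1, 92.5 and 42.2 CPM after the burn, against 113, 99.7 and 51.99 CPM in controls. Of 9 neutrophil genes all had a lower estimate. Their sum was 1450, 1536 and 743 CPM after the burn, against 1785, 1742 and 759.9 CPM in controls. The granulocyte precursor, neutrophil and B cell precursor sums, like the mitosis sum, were highest in control 1 and control 2. They were lowest in burn 3 and control 3. Of 8 B cell precursor genes all had a lower estimate, 1 of them at an unadjusted p under 0.05, and their sum was 26.2, 17.9 and 14.9 CPM after the burn, against 30.9, 46.1 and 15.4 CPM in controls. Of 6 T cell genes 4 were tested, 3 with a higher estimate, with sums of 3.96 to 8.304 CPM after the burn and 5.05 to 6.23 CPM in controls. Macrophage markers ran the other way: all 8 had a higher estimate, none at an unadjusted p under 0.05 in edgeR, and their sums were 212 to 408 CPM after the burn and 184 to 291 CPM in controls. The sums overlapped between groups in each of these 5 lists. The median log2 fold change was -0.90 for erythroid precursors, -0.25 for granulocyte precursors, -0.31 for neutrophils and -0.54 for B cell precursors. It was 0.17 for T cells and 0.22 for macrophages. The mitosis sum divided by the list sum spread by 1.32 times for erythroid, 1.74 for granulocyte and 1.55 for B cell precursors. That ratio spread by 1.965 times for neutrophils, 2.08 for T cells and 2.15 for macrophages. Every one of these markers had reads in every library, and their part in the result was not tested either.

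Resident and neighbouring tissues differed in how far their sums ran with the mitosis genes. Of 8 cartilage and bone genes 7 had a lower estimate, where 47.9% of tested genes had one. At an unadjusted p under 0.05 in edgeR 2 of them were lower, where 0.924% of tested genes were. The 8 genes summed to 47.2, 39.8 and 38.3 CPM after the burn, against 72.04, 63.9 and 46.3 CPM in controls. That sum, too, was highest in control 1 and control 2, and the mitosis sum divided by it spread by 1.52 times. Fibroblast genes (6) summed to 7008, 3687 and 3568 CPM after the burn, against 6867, 8182 and 4399 CPM in controls. In that sum burn 1 lay above control 1, and the mitosis sum divided by it spread by 1.495 times. The list was split, with lower estimates for Col1a1, Col1a2 and Col3a1 (log2 fold changes -0.91, -0.68 and -0.28). Estimates were higher for Dcn, Pdgfra and Lum (0.36, 0.16 and 0.41). Satellite glia (6 genes) summed to 1094 to 1504 CPM after the burn and 1217 to 2136 CPM in controls, Schwann cells (7 genes) to 3989 to 8087 CPM after the burn and 4929 to 9096 CPM in controls, and endothelium (6 genes) to 159.7 to 210.1 CPM after the burn and 157 to 226 CPM in controls. Skeletal muscle genes (8) summed to 1500 to 8995 CPM after the burn and 643 to 9725 CPM in controls. Spinal cord genes (9) all had a higher estimate after the burn, 7 of them at an unadjusted p under 0.05 in edgeR. Of all tested genes 2.04% were higher at that p. Sums were 365 to 525 CPM after the burn and 289 to 346 CPM in controls. Slc17a6 made up the largest part of them, with 228, 268.5 and 332.5 CPM after the burn, against 243, 196.5 and 297 CPM in controls. Its log2 fold change was 0.17, and the cells these reads came from were not tested. The part of these tissues in the result was not tested. The median log2 fold change was -0.02 for satellite glia, -0.08 for Schwann cells, -0.04 for endothelium, -0.06 for fibroblasts, -0.72 for cartilage and bone, -0.02 for muscle and 1.49 for spinal cord.

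**Figure D5:**
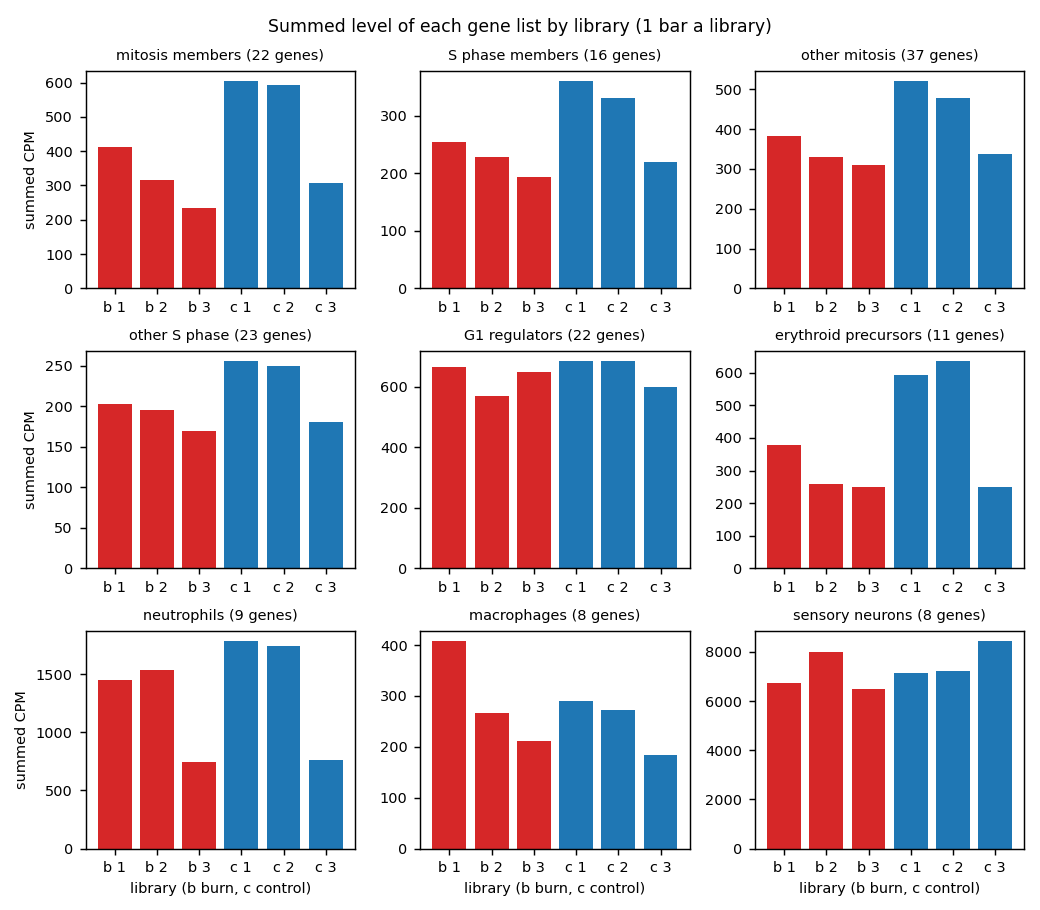
Each bar is the summed CPM of a gene list in 1 library, with burn libraries (b) left of control libraries (c). Control 1 and control 2 hold the tallest bars in the mitosis, S phase, other mitosis, other S phase, erythroid and neutrophil panels. Erythroid sums are near 250 CPM in burn 3 and control 3, while the G1 regulators and sensory neuron markers are nearly level.

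Read counts differed widely between members, while the SE of the log2 fold change was 0.343 for Ccnb1 and 0.341 for Mki67. The smallest count of a mitosis gene was 50 reads (Ccnb1 in control 2) and of an S phase gene 104 reads (Cdt1 in burn 1), while Mki67 reached 8091. Annotated exons of another gene overlap those of 10 members (Ccna2, Ccne2, Cdc20, E2f8, Kif20a, Mcm7, Nusap1, Plk1, Prc1 and Top2a), and Ccnb1, Ccnb2, Pcna and Tyms have pseudogenes bearing their names. How strand was handled in the counting was not stated in any label or header, and reads that aligned to several places were tallied apart, so levels of these 14 genes are less certain.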

How the data were processed

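Whole lumbar ganglia were sequenced as stranded total RNA, in single-end reads of 75 nucleotides, per the labels' protocols. The authors deposited raw counts of reads per gene symbol, 1 file per library; per the submitters' processing notes, STAR, SAMtools and HTSeq were used, with mm10 and GRCm38 as builds. Neither annotation release nor strand setting is given in the sources used. The 5 HTSeq tally lines, 49.2% to 56.2% of all entries per library, were left out.

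The test on these counts was run in edgeR 4.0.16 under R 4.3.3: filterByExpr (minimum count 10, minimum total 15), TMM scaling, glmQLFit with robust estimation and glmQLFTest, two-sided, group as the only term, Benjamini-Hochberg adjustment over 17534 genes. The SE is the log2 fold change divided by the root of F. Within groups, libraries differed beyond sampling noise (43.6 to 204 times the chi-square expected). Alternatives were limma-voom 3.58.1, DESeq2 1.42.0, other scalings and filters, depth terms and left-out libraries. Exon lengths came from GENCODE M21 on GRCm38, which held 91.6% of the symbols. The fits with group alone and with the depth term were also run on simulated counts with known changes. Those counts were drawn gene by gene, with the same dispersion for every gene and no shift shared by genes of a library. They therefore cannot show how the fits behave where genes run together, as the members did here.

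Members, lists and tests were chosen with earlier results of these data known. The rule for named genes fixed 23 members whatever their result, added those with the lowest p and the widest and narrowest spread in each list, the 3 lowest p of each further cell cycle list, the 2 most abundant markers of a list (given for red cells, and Tubb3 for neurons) and the 10 genes most like the mitosis mean over the libraries. Other markers and members given by fold change alone, and Mcm5, Rrm1, Aurka, Ccnd1, Klf1 and Hemgn, were named after their values were seen.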

Additional observations from a re-analysis of the deposited data

How the results depend on the processing

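None of the 38 members passed at an adjusted p under 0.05 in any of 16 other fits, nor at an adjusted p under 0.1 in the fit with group alone (with the depth term, Tpx2 at 0.0822 and Mcm5 at 0.09997 were under 0.1), and the median of the mitosis genes stayed negative throughout, from -0.84 (without control 3) to -0.39 (without burn 3). That of the S phase genes ran from -0.68 (without control 3) to -0.34 (without control 1). The count at an unadjusted p under 0.05, 4 for mitosis and 2 for S phase, was 7 and 5 without a filter on low counts, 11 and 5 with DESeq2, 20 and 11 with the depth term, 20 and 10 among the 4 shallower libraries, and 0 to 19 and 0 to 11 when 1 library was left out. Without scaling factors it was 2 for mitosis, and with limma-voom 0 for S phase. For the fits without a filter and without scaling factors, the share of all genes at that p was not tallied. The counts of those fits therefore cannot be set against a background. Over all genes 4 were called, against 14 without a filter, 2 with a minimum count of 50, 28 with DESeq2, 38 with the depth term, 15 among the shallower libraries, 7 at an adjusted p under 0.1 and 1 to 6 with 1 library left out. Of 28 members followed through these fits, 1 changed sign: E2f1, with 0.0274 among the shallower libraries, 0.0296 under the replicate block, and -0.31 (without control 1) to 0.0509 (without control 3) when 1 library was left out. The cause of these shifts was not tested.

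The titles number only 2 libraries of each group alike. With that number as a replicate block, 15 mitosis and 10 S phase genes had an unadjusted p under 0.05, against 1.65% of all genes lower, and 0 members and 4 genes (0.0231%) were called. The deviations of same-numbered libraries correlated at -0.41 among libraries 1 and 2 alone. Taken from the means of all 3 libraries of a group, they correlated at -0.095 for number 1 and -0.057 for number 2. A fit with the numbers crossed was added after the data were seen and is not among the other fits counted above. In it 14 mitosis and 8 S phase genes passed at an adjusted p under 0.05. In all 413 genes were called (2.38% of those tested, 1.79% lower). No label pairs libraries of different number, so the crossed pairing has no basis in the titles. Given the correlation of -0.41, it joins libraries that tended to deviate alike among those numbered 1 and 2. Its counts therefore cannot decide whether the members differed after the burn, and no conclusion is drawn from them.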

Other observations

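Genes other than the 38 members were ranked by how closely they followed the mean of the mitosis genes over the 6 libraries, among 15504 genes with a mean of at least 1 CPM. The 10 closest, all with Pearson's r of at least 0.99 as a description of these libraries, were Dlgap5, Rpia, Rasgrp2, Fam220a, Hist1h1b, Hist1h2ab, Dkkl1, Hist1h2bf, Fam109b and Hist1h3c. Dlgap5, a spindle protein that is also in the further mitosis list, had 7.64, 5.56 and 3.47 CPM after the burn, against 11.8, 10.6 and 5.32 CPM in controls. Hist1h1b, a linker histone gene of the replication-dependent cluster, had 41.8, 33 and 17.8 CPM after the burn, against 78.1, 69.2 and 29.2 CPM in controls (log2 fold change -0.93, edgeR adjusted p 0.9998). Rpia, an enzyme of the pentose phosphate pathway, had 12.4, 11.4 and 9.83 CPM after the burn, against 14.9, 14.7 and 11 CPM in controls. None of the 10 passed in edgeR, and 1 of them, Hist1h3c, had an unadjusted p under 0.05 (0.0461).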
